A study of Saccharomyces cerevisiae with 8 samples.

Results

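The response to zinc of a Saccharomyces cerevisiae strain without the Pif1 helicase was read from 2 spotted 2-colour arrays, which were chosen by their labels. Each array held RNA of pif1 cells (pif1::KanMX in BY4741) kept for 1 h in 5 mM zinc chloride and RNA of pif1 cells grown alongside without added zinc. The zinc RNA carried Cy5 on replicate 1 and Cy3 on replicate 2. Of the 6212 yeast IDs of the table, 4272 had a value on both arrays, and these are described here. The other 6 arrays of the series paired wild-type BY4741 with and without zinc, pif1 with the wild type in arrays labelled with zinc, and pif1 with the wild type in arrays labelled without zinc, on 2 arrays each. All cells grew in rich medium (YPD), and whether replicates 1 and 2 came from separate cultures is not given by the labels. A p-value here then measures only the spread between these arrays, which may be technical. Equal amounts of total RNA were labelled, so the ratios are relative levels.

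Pif1 is a DNA helicase with a nuclear and a mitochondrial form. It removes telomerase from chromosome ends, unwinds G-quadruplexes and helps to keep mitochondrial DNA intact. Zinc is an essential cofactor that becomes toxic in excess. Yeast takes it up through the plasma membrane importers Zrt1, Zrt2 and Fet4, stores it in the vacuole through Zrc1 and Cot1, and controls several of these genes with the activator Zap1. Excess zinc competes with iron and copper for binding sites in proteins, among them those built around iron-sulfur clusters. The environmental stress response of yeast raises chaperones, antioxidant enzymes and carbohydrate stores and lowers ribosome production.

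Values below are log2 ratios, with zinc over without, after each array was centred on its median. Where 2 values stand together they are replicates 1 and 2, and an SD is that of these 2 arrays. The log base and the direction of the deposited ratios are not stated. Base 2 was taken from the size of the values, and the direction from stress genes that lay above 0 on both arrays although the dyes were exchanged, so the sign of the stress genes is no independent result. One pair of arrays with the same dye orientation and wild-type RNA without zinc as the denominator, wild-type zinc replicate 1 and replicate 2 of pif1 against wild type labelled without zinc, correlated at −0.365 across genes. A second such pair, wild-type zinc replicate 2 and replicate 1 of pif1 against wild type labelled without zinc, correlated at −0.304. The labels state the dyes of every array but not which RNA is the numerator, and the direction read from the stress genes was kept.

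The pif1 arrays had the widest spread of the 4 pairs. Across 4272 IDs replicate 1 and replicate 2 of pif1 correlated at 0.573, with a within-pair SD of 0.431. The wild-type zinc arrays correlated at 0.868, with a within-pair SD of 0.235, and the pairs of pif1 against wild type had SDs of 0.225 (labelled with zinc) and 0.215 (labelled without). Of the pif1 IDs, 34.4% had opposite signs on the 2 arrays, against 20.4% in the wild-type zinc pair. The pairs of pif1 against wild type had 43.2% (labelled with zinc) and 35.2% (labelled without), with correlations of 0.439 and 0.586. Of the 4272 pif1 IDs, 1437 lay above 0 and 1365 below 0 on both arrays. Replicate 1 of pif1 correlated more with replicate 1 of the wild type (0.734) than with its own partner, and replicate 2 of pif1 with replicate 2 of the wild type (0.743). Deviations by replicate number, replicate 1 minus replicate 2, ran together in all 6 pairs of comparisons (correlations across IDs of 0.393 to 0.510). These correlations are across genes, which are not independent replicates. The labels do not say what arrays of the same number share, and the part of this in the results was not tested. By their labels, the arrays of pif1 against wild type gave a strain difference opposite in sign to that of the zinc arrays for 6 of the 7 genes that differed, and the pif1 response was fitted without them, except in the alternatives named as using all 8 arrays or leaving out 1 array.

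PIF1 itself (YML061C) had no value on either pif1 zinc array, so these arrays hold no check of the deletion. On the arrays of pif1 against wild type it had a usable value on replicate 2 alone, −3.69 with zinc and −4.88 without zinc by the labels. The marker deletions of BY4741 are shared by both RNAs of an array. LEU2 had no value on any array, and MET17 had one on pif1 replicate 1 alone (−2.79). URA3 had a value on 6 of the 8 arrays, at 0.15 and 0.18 on those of pif1 with zinc, and HIS3 was at 0.15 and −0.36, so these spots gave a signal although the strain carries deletions, whole or partial, at these markers. Among genes of the a-mating type, MFA2 (0.07 and 0.13), BAR1 (−0.06 and −0.25) and STE2 (−0.62 and −0.34) did not pass, and ASG7, an a-specific gene of the pheromone pathway, rose by 1.49 (1.61 and 1.37). The alpha-specific genes MF(ALPHA)2 (−0.38 and 0.40) and SAG1 (−0.26 and 0.13) had values on both arrays as well, and MFA1, MF(ALPHA)1 and STE3 had none. A ratio between RNAs of the same strain does not show the mating type.

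Zinc changed 526 of the 4272 IDs past the threshold (limma adjusted p under 0.05), which is 12.3%. Of these, 235 rose (5.5%) and 291 fell (6.81%), 161 and 188 of them at least 2-fold. Taking each array by itself, 104 IDs reached a 2-fold rise on both and 99 a 2-fold fall on both. With only 2 arrays, the fit took 1 spread (SD 0.431) for all IDs. A call was therefore in effect a limit on the size of the mean, between 0.83 and 0.84. The replicate number as a block over all 8 arrays gave 968 higher and 931 lower, with 520 of the 526 called again in the same direction, and an unadjusted p under 0.05 was reached by 1012 (463 above and 549 below 0). Counts of gene lists at these 2 looser settings are to be read against these totals over all IDs.

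**Figure D1:**
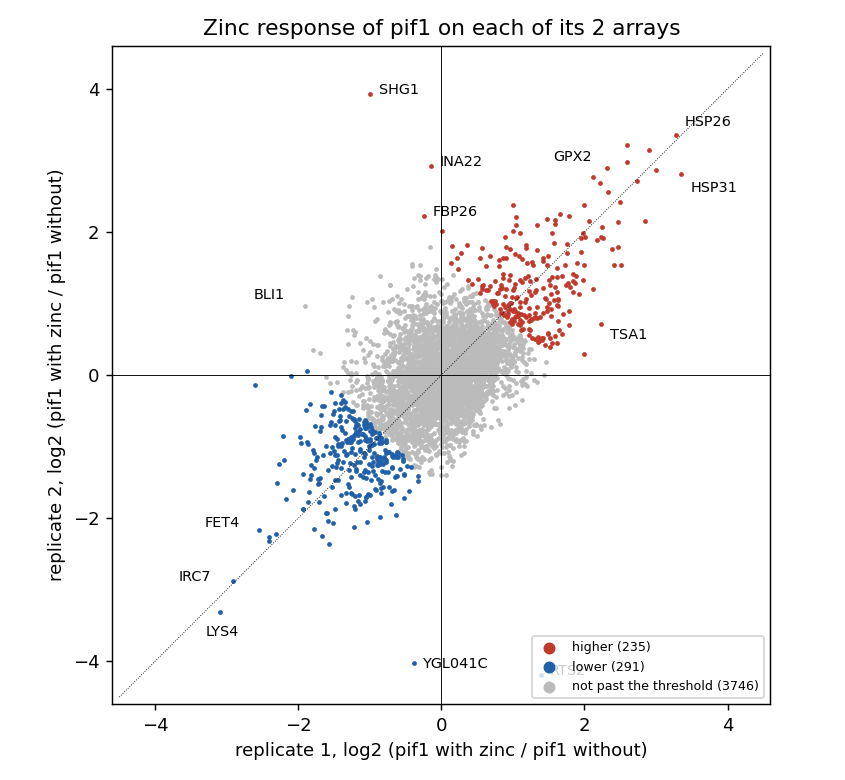
Each point is 1 of 4272 IDs, with the log2 ratio of pif1 cells with zinc over pif1 cells without on replicate 1 (x axis) and replicate 2 (y axis). Red points (235) rose and blue points (291) fell past the threshold, grey points did not pass, and the dotted line marks equal values. HSP26 and LYS4 lie on the line, while SHG1, INA22, FBP26, RTS2, YGL041C and BLI1 lie far from it.

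Small heat shock and membrane stress proteins held the highest values. Of 12 measured members, 11 rose and 0 fell, with a median of 2.38 against 0.01 over all 4272 IDs. HSP26 (YBR072W, chromosome II), a small heat shock protein that binds unfolded proteins, stood at 3.28 and 3.35. HSP31, a glyoxalase and chaperone, had 3.35 and 2.81. HSP12, a membrane-stabilising protein, had 2.11 and 2.77. HSP30, a plasma membrane protein that restrains the proton pump, had 2.47 and 2.14. Both arrays agreed within 1 log2 unit on each of these genes. The other members that rose ran from HSP42 at 0.95 to DDR48 at 2.93 (3.00 and 2.86), a stress gene on chromosome XIII. DDR48 (YMR173W) overlaps YMR173W-a (2.91 and 3.15), and the labels do not say that the spots tell strands apart, so their signals are uncertain as separate genes. MRH1, a membrane protein of the Hsp30 family, was at 0.09.

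Beyond this group, the larger chaperones responded unevenly. Of 31 Hsp70, Hsp90 and Hsp104 genes and their partners, 5 rose and 1 fell (19.4%, against 12.3% over all IDs). HSP104, the disaggregase, had 1.19 and 1.78, its mitochondrial relative HSP78 had 0.91 and 1.79, and BTN2, an aggregate-sorting factor, had 1.04 and 2.21. SSE1, a nucleotide exchange factor for Hsp70, fell (−0.89 and −1.13). In the wild type, SSE1 was at −0.06 and 0.17. The difference between strains did not pass for SSE1 (−1.07 ± 0.30 SE, adjusted p = 0.256, or 0.00567 with the replicate block). Of 14 chaperonin and prefoldin genes none was called by limma, 1 higher and 4 lower had an unadjusted p under 0.05, and 2 and 8 passed with the replicate block (median −0.32). Over all 4272 IDs these counts were 463 and 549, and 968 and 931.

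Carbohydrate stores were a further group above 0. Of 7 trehalose genes, 4 rose and 0 fell: PGM2, a phosphoglucomutase (2.74 and 2.71), TPS1, the trehalose phosphate synthase (1.87 and 1.29), its regulatory partner TPS3 (1.22 and 1.18) and UGP1, which makes UDP-glucose (1.23 and 0.94). TPS2, the trehalose phosphatase, was at 0.77 and 0.05 and did not pass. Of 10 glycogen genes, 6 rose and 0 fell, led by the branching enzyme GLC3 (1.59 and 2.16) and the debranching enzyme GDB1 (0.95 and 1.40). GSY1 (0.57 and 1.20) and GSY2 (1.05 and 0.83) encode glycogen synthases. The hexokinases HXK1 (2.25 and 2.07) and GLK1 (2.52 and 1.53) and the glucose transporter HXT4 (0.68 and 1.66) rose. In their list of 20 hexose genes 3 rose and 1 fell (20%, against 12.3% over all IDs). Glycolysis itself had 1 gene higher and 0 lower of 27 (3.7%, below the 12.3% over all IDs).

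Enzymes that remove peroxide and superoxide rose in 8 of 11 cases, and 0 fell. SOD1, the copper and zinc superoxide dismutase, had 2.41 and 1.54. PRX1, the mitochondrial peroxiredoxin, had 1.95 and 1.71. TSA1, the main cytosolic peroxiredoxin, had 2.24 and 0.71, the higher value on replicate 1. GPX2, a glutathione peroxidase, is described with the strain difference. CTT1, the cytosolic catalase (1.03 and 0.81), TSA2 (1.24 and 1.32), AHP1 (1.69 and 0.58) and HYR1 (1.14 and 0.65) complete the 8. CCP1, the mitochondrial cytochrome c peroxidase, was at 0.30 and −0.30. The median of the 11 genes was 1.13 in pif1 and 0.55 in the wild type, with pif1 array medians of 1.24 and 0.71.

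Of 27 genes of the glutathione and thioredoxin systems, 8 rose and 0 fell. The thioredoxin TRX2 had 1.85 and 1.31, and the glutathione transferases GTT1 and ECM4 had 1.93 and 1.13, and 1.49 and 1.67. The glutaredoxin GRX1 had 1.55 and 1.37. MXR1, a methionine sulfoxide reductase, was called from replicate 2 (0.02 and 2.02). The enzymes of glutathione synthesis did not pass, with GSH1 at 0.73 and GSH2 at 0.07. Aldo-keto, alcohol and quinone reductases, some of which detoxify carbonyls with NADPH, had 11 of 24 members higher and 0 lower. Leading members were YML131W (2.60 and 2.98), GCY1 (2.21 and 2.68) and YDL124W (2.25 and 1.91), and GRE2 (1.52 and 1.25) also rose. The pentose phosphate and NADPH genes were split, with 3 of 21 higher and 3 lower (28.6%, against 12.3% over all IDs, median 0.06). SOL4, a phosphogluconolactonase, and NQM1, a relative of transaldolase, rose (2.06 and 2.15, and 1.33 and 2.10), as did YEF1, an NAD kinase (1.05 and 2.09). The transketolase TKL1 (−0.99 and −1.67), the ribose phosphate isomerase RKI1 (−0.80 and −1.14) and PRS5, of phosphoribosyl pyrophosphate synthesis (−0.66 and −1.60), fell.

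**Figure D2:**
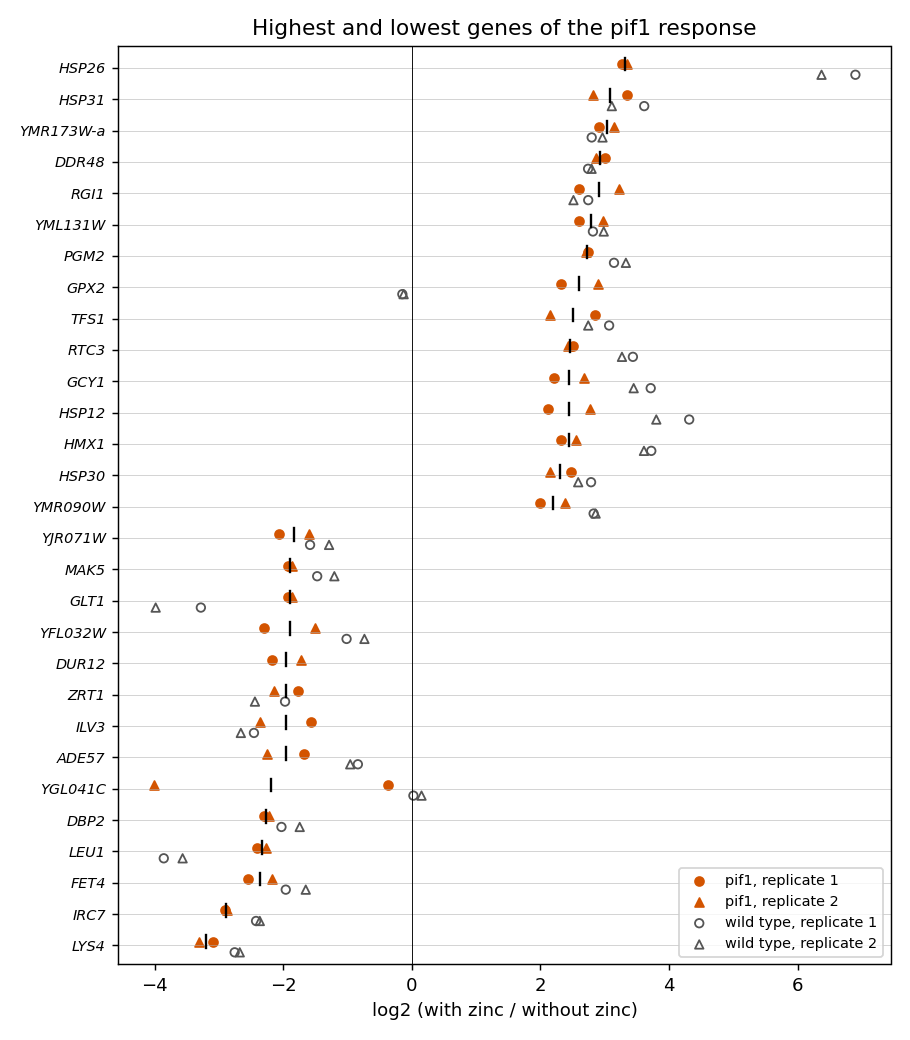
Log2 ratios, with zinc over without, of the 15 highest and 14 of the 15 lowest genes of the pif1 response, with filled symbols for the pif1 arrays, a black tick for their mean and open symbols for the wild-type arrays. HSP26 heads the list and LYS4 closes it. Open symbols lie at −0.15 and −0.13 for GPX2, and DUR12 has no wild-type pair.

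The vacuole and its degradation machinery held further genes above 0. Of 11 vacuolar hydrolases and their inhibitors, 4 rose and 0 fell: the mannosidase AMS1 (1.78 and 2.22), the aminopeptidase APE1 (1.69 and 1.38), the proteinase inhibitor PBI2 (1.19 and 1.82) and the carboxypeptidase ATG42 (1.11 and 0.86). PEP4, proteinase A, was at 1.16 and 0.50 and fell short, and PRB1, proteinase B, was at 0.53 and −0.27. Of 20 autophagy genes 3 rose, ATG31 (1.84 and 1.41), the cargo receptor ATG19 (1.58 and 1.05) and ATG33 (1.23 and 0.65). That share, 15%, lies near the 12.3% called over all IDs. UBI4, the polyubiquitin gene, had 1.25 and 1.13, and the conjugating enzymes UBC5 and UBC8 also rose. The ligase RSP5 fell (−1.07 and −0.74). In the list of ubiquitin and conjugating enzymes 3 of 30 genes rose and 1 fell, a share (13.3%) also near that over all IDs. No proteasome gene of 32 was called by limma in pif1, although 21 lay above 0 on both arrays (1437 of 4272 over all IDs). In that list 4 had an unadjusted p under 0.05 above 0 and 0 below, and 18 passed above 0 and 1 below with the replicate block. The matching counts over all 4272 IDs were 463 and 549, and 968 and 931.

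Nuclear genes of mitochondrial energy production lay mostly above 0. Of 23 respiratory chain and ATP synthase genes 5 rose and 0 fell (21.7%), and 20 lay above 0 on both arrays (1437 of 4272 over all IDs). COX5B, the hypoxic form of a cytochrome oxidase subunit, had 0.75 and 1.31, and STF2, which acts with the inhibitor of the ATP synthase, had 1.20 and 1.56. ATP7 (1.37 and 0.47), CYT1 (1.09 and 0.70) and QCR8 (0.72 and 1.04) were the others. The aerobic alternative to COX5B, COX5A, was at −0.07 and 0.30. Of the mitochondrial ribosomal proteins 0 of 58 were called by limma (3 above 0 and 0 below at an unadjusted p under 0.05, 16 and 1 with the replicate block), with a median of 0.17. The counts over all 4272 IDs, 463 and 549, and 968 and 931, are larger shares than in this list. The list of mitochondrial DNA maintenance, where Pif1 itself acts, had 0 higher and 1 lower of 17 (5.88%, against 12.3% over all IDs). The member that fell, ILV5 (−1.22 and −2.12), is also an enzyme of branched-chain amino acid synthesis. ABF2, which packages mitochondrial DNA, was at 0.96 and 0.53, and MIP1, its polymerase, at −0.58 and 0.57.

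The plasma membrane importers of zinc fell. Of 21 zinc transport genes and Zap1 targets, 4 fell and 2 rose (28.6%, against 12.3% over all IDs). The low-affinity importer FET4 had −2.55 and −2.17, ZRT1 had −1.78 and −2.15, and ZRT2 had −1.21 and −1.69. Both arrays placed all 3 importers at least 2-fold lower. IZH1, a membrane protein of zinc homeostasis, fell as well (−0.87 and −0.81), and in the wild type it was at 0.03 and −0.02. The difference between strains did not pass for IZH1 (−0.84 ± 0.29 SE, adjusted p = 0.443). The vacuolar zinc transporter ZRC1 was at −0.56 and −1.01 and fell short, and its partner COT1 was at 0.42 and 0.15. ZAP1 had no pair of values. The 2 genes that rose, HSP26 and TSA1, are listed as Zap1 targets but are stress genes by their known roles, and no zinc transporter rose.

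Iron genes were mixed. Of 27 genes of iron uptake and siderophores, 7 rose and 1 fell (29.6%, against 12.3% over all IDs). HMX1, the heme oxygenase, had 2.32 and 2.55, and ATX1, a copper chaperone, had 0.95 and 1.76. The wall mannoprotein FIT2, which retains siderophore iron, had 1.78 and 0.89, and FIT3 had 1.59 and 0.54. ARN1 (1.26 and 0.78), the permease FTR1 (1.03 and 0.89) and the mitochondrial iron carrier MRS4 (0.87 and 0.85) were the remaining genes that rose. FET3, the oxidase that works with FTR1, was at 0.54 and −0.20. FRE1, the main surface ferric and cupric reductase, fell (−1.53 and −1.27), as did CTR1, the copper importer (−0.61 and −1.09). The array medians of the iron list differed, at 0.44 on replicate 1 and −0.02 on replicate 2.

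Enzymes that carry an iron-sulfur cluster fell in 9 of 19 cases and rose in 0. LYS4, homoaconitase of lysine synthesis, was the lowest of all IDs (−3.09 and −3.31). LEU1, isopropylmalate isomerase, had −2.41 and −2.26. The arrays differed on both genes by less than 0.5 log2 units. ILV3 (−1.56 and −2.36), a dehydratase of branched-chain synthesis, and GLT1 (−1.93 and −1.87), glutamate synthase, followed. Outside amino acid synthesis, TYW1 (−1.73 and −1.15) and ELP3 (−1.66 and −0.43) of tRNA modification, RLI1 (−1.46 and −1.11) of ribosome recycling and DPH2 (−0.92 and −1.61) of diphthamide synthesis fell. ACO1, the aconitase of the TCA cycle, was at −0.32 and −0.43, and the DNA polymerase subunit POL3 (−0.40 and 0.22) and the primase subunit PRI2 (−0.31 and 0.09) did not pass. The genes that assemble the clusters had 1 of 18 higher, ISA2 (1.19 and 0.81), and 0 lower. That share, 5.56%, lies below the 12.3% over all IDs.

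Branched-chain amino acid synthesis had 8 of 12 members lower and 0 higher, the largest share among the lists with at least 10 measured genes and any gene lower. ILV2, ILV5, ILV3, LEU4, LEU9, LEU1, BAT1 and the regulator LEU3 fell, so that each step from pyruvate to leucine with a measured enzyme held at least 1 gene that fell. ILV6, the regulatory subunit of the first enzyme, was at 0.04 and −1.09. In lysine synthesis the early enzymes LYS20 (−0.69 and −1.62) and LYS4 fell, while LYS12 (0.27 and 0.06), LYS9 and LYS2 did not pass. GLN1, glutamine synthetase (−0.84 and −0.88), and ASN1, an asparagine synthetase (−0.89 and −1.26), fell as well. Of 25 purine genes 6 fell and 0 rose, with ADE57 at −1.67 and −2.25 and GUA1, GMP synthetase, at −0.86 and −1.51. URA7, CTP synthase, had −1.71 and −1.77, and the uridine permease FUI1 had −1.73 and −1.53. Of 28 genes of sulfate assimilation and methionine, 2 rose and 3 fell (17.9%, against 12.3% over all IDs). IRC7, a beta-lyase, had −2.91 and −2.88, MET6, methionine synthase, had −1.14 and −0.93, and SAH1, which breaks down S-adenosylhomocysteine, had −0.48 and −1.28. STR3 (0.88 and 1.92) and MET14 (0.89 and 1.11) were the members that rose.

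**Figure D3:**
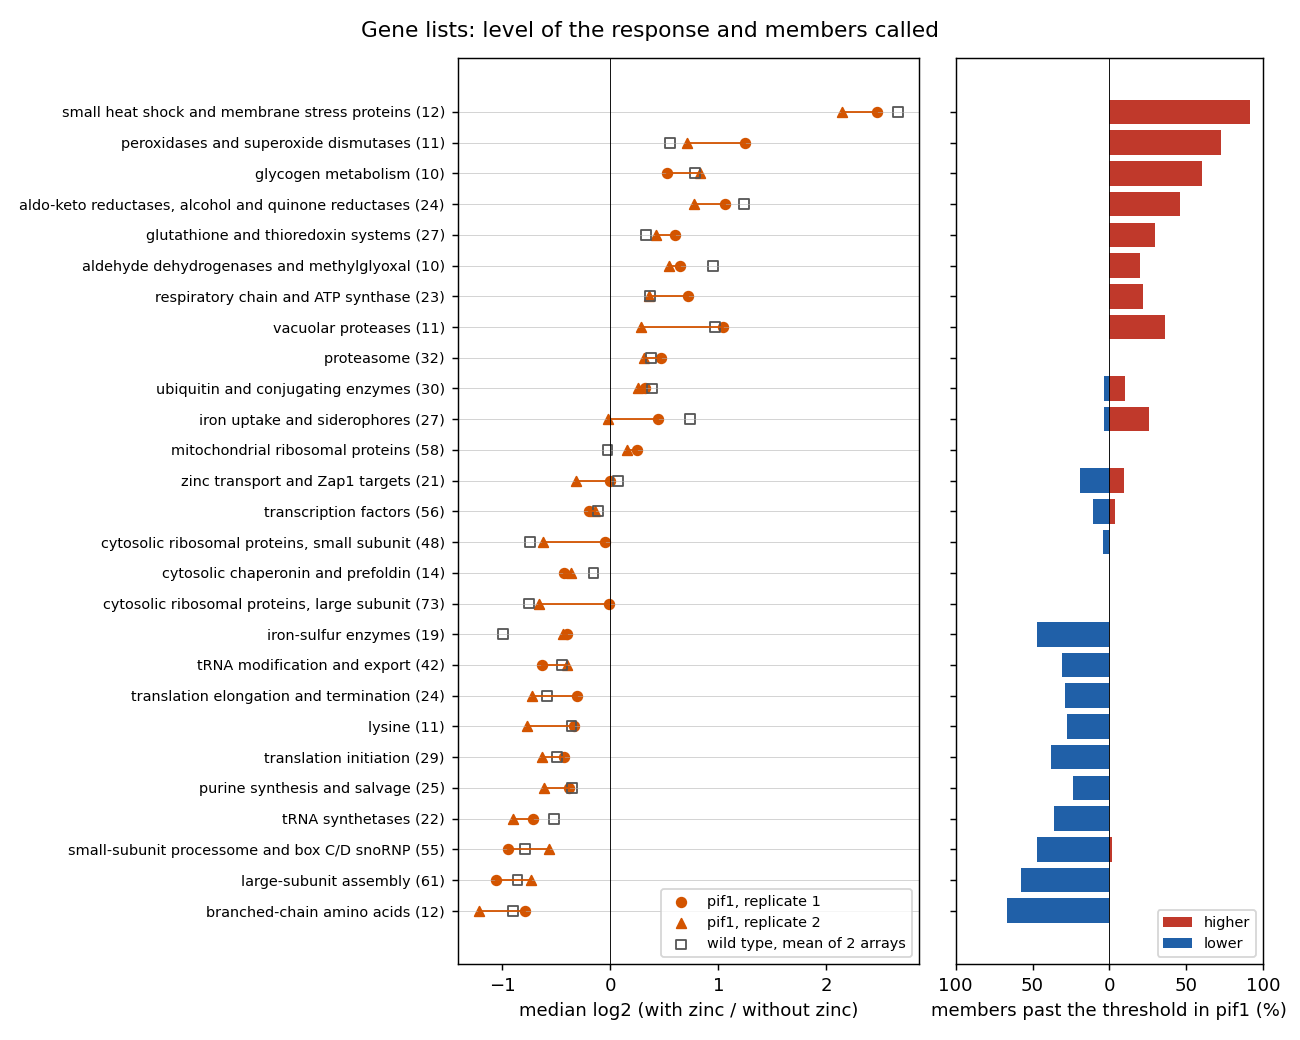
Left, median log2 ratio (with zinc over without) of each gene list on replicate 1 (circle) and replicate 2 (triangle) of pif1 and over the mean of the wild-type arrays (open square), with the number of measured members in brackets. Right, the percentage of members that rose (red) or fell (blue) in pif1. Shown are lists with at least 10 members and a median beyond 0.3 in size, leaving out the lists grouped after their values were seen, and 4 further lists named in the text.

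The assembly of ribosomes made up the most numerous group that fell. Of 61 genes of large-subunit assembly, 35 fell and 0 rose (median −0.90), and of 55 genes of the small-subunit processome and box C/D particles, 26 fell and 1 rose (median −0.75). DBP2, an RNA helicase (−2.31 and −2.22), MAK5, a helicase of large-subunit assembly (−1.93 and −1.86), DIP2 of the processome (−1.87 and −1.78), NSR1, a nucleolar protein (−1.58 and −2.04), SDA1 of large-subunit assembly (−2.19 and −1.18) and UTP4 of the processome (−1.93 and −1.38) had the lowest means of both lists. NOP1, the fibrillarin methyltransferase of the box C/D particles, was the member that rose (1.74 and 1.54). The medians of both lists lay lower on replicate 1 than on replicate 2, at −1.05 and −0.73 for large-subunit assembly and at −0.94 and −0.57 for the processome. Among polymerase I and III genes, 3 of 30 fell, such as RPA135 (−1.08 and −1.09), and 1 rose, TFC4 (0.15 and 1.80). The share called in that list, 13.3%, lies near the 12.3% over all IDs.

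Ribosomal protein genes showed another split by array. The large-subunit proteins had a median of −0.01 on replicate 1 and −0.65 on replicate 2, and the small-subunit proteins −0.05 and −0.62. On the wild-type arrays the medians were −0.62 and −0.86 for the large subunit and −0.57 and −0.92 for the small subunit. None of 73 large-subunit genes was called by limma (0 above and 10 below 0 at an unadjusted p under 0.05, 1 and 31 with the replicate block). Of 48 small-subunit genes 2 fell, RPS0B (−0.85 and −1.21) and ASC1, a signalling protein of the small subunit (−0.33 and −1.41). Many of these genes have near-identical copies whose spots may share signal. A level of the ribosomal protein genes in pif1 therefore depends on which array is read.

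The remaining steps of translation had genes lower and none higher. Of 22 tRNA synthetases 8 fell, among them YHR020W (−1.21 and −1.83), GLN4 (−1.56 and −1.09) and YDR341C (−1.18 and −1.21), and 20 lay below 0 on both arrays. Of 42 tRNA modification genes 13 fell, such as the methyltransferases TRM1 (−1.83 and −1.26) and NCL1 (−1.65 and −1.12). Of 29 initiation genes 11 fell, including the helicase DED1 (−1.61 and −1.93) and TIF4631, which encodes eIF4G (−1.78 and −1.29). Of 24 elongation and termination genes 7 fell, including EFT1, elongation factor 2 (−1.03 and −1.66), and SUP35, the release factor (−1.64 and −1.69). EFT1 has a near-identical copy, EFT2, so its signal may be shared.

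Membrane, wall and secretion genes moved in smaller numbers. Of 24 ergosterol genes 4 fell and 0 rose: ERG1 (−1.06 and −1.33), ERG7 (−1.02 and −1.36), ERG11 (−1.05 and −1.70) and ARE1, a sterol acyltransferase (−1.20 and −1.87). OLE1, the fatty acid desaturase, fell (−0.84 and −1.58), and OPI3, of phosphatidylcholine synthesis, rose (1.62 and 0.44). Of 55 wall genes 3 rose and 5 fell, with SPI1, a wall protein of stress, at 2.46 and 1.79 and the sensor MID2 at −1.04 and −2.05. PMR1, the Golgi calcium and manganese pump, fell (−1.37 and −1.06), and PMC1, the vacuolar calcium pump, rose (1.31 and 1.17). STT3, the oligosaccharyltransferase subunit, fell (−1.15 and −1.68) with the mannosyltransferases PMT1 and PMT2. These counts, 8 of 55 in the wall list and 4 of 24 in the ergosterol list, lie near the background of 12.3%. So does the calcineurin and calcium list, with 1 gene higher and 1 lower of 15 (13.3%). The fatty acid, phospholipid and sphingolipid list had 2 genes higher and 1 lower of 36 (8.33%). The mannosylation and N-glycosylation list had 3 lower and 0 higher of 47 (6.38%). Both of these shares lie below the background.

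Transcription factors were called about as often as all IDs. Of 56 transcription factors 2 rose and 6 fell, a share (14.3%) near the background. ROX1, the repressor of hypoxic genes, rose (1.42 and 1.64), and HAP3, a subunit of the activator of respiration, rose (0.43 and 1.28). HAC1, the activator of the unfolded protein response, fell most (−1.59 and −1.92). KAR2, the ER Hsp70 and 1 of its known targets, rose (0.55 and 1.15). Of 22 ER folding genes, HAC1 and KAR2 among them, 2 rose, 1 fell and 19 did not pass, a share (13.6%) near the background. BAS1, the activator of purine genes, fell (−1.88 and −0.94), as did LEU3, of leucine synthesis (−1.31 and −0.93), SKN7, of oxidative stress (−1.14 and −1.06), PHO4, of phosphate genes (−1.15 and −0.78), and ECM22, of sterol genes (−1.04 and −0.72). The activators of the stress response were at 0.32 and −0.32 for MSN2, 0.11 and 0.66 for MSN4 and 0.24 and 0.46 for YAP1, and AFT1 of iron genes was at −0.23 and 0.03. In the protein kinase A pathway 3 of 18 genes rose and 2 fell, a share of 27.8% against 12.3% over all IDs. The catalytic subunit TPK2 (1.37 and 0.81) and the phosphodiesterase PDE1 (1.23 and 0.84) were among those that rose, and RAS1 (−1.07 and −0.66) and the kinase SCH9 (−0.78 and −0.91) fell.

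Lists near the known functions of Pif1 held no larger share of calls than the 12.3% over all IDs. Of 36 genes of DNA damage, ribonucleotide reductase and helicases, limma called none (1 above and 4 below 0 at an unadjusted p under 0.05, 4 and 8 with the replicate block), with a median of 0.00. Both are smaller shares than over all 4272 IDs, where the counts were 463 and 549, and 968 and 931. The reductase subunits RNR2 (−0.58 and −1.04) and RNR4 (−0.33 and −1.18) were lowest. Of 39 replication genes 4 fell (10.3%, against 6.81% over all IDs) and 0 rose, the helicase subunits MCM2 (−1.89 and −0.49) and MCM7 (−1.84 and −1.46), the loader CDC6 (−0.84 and −1.64) and the clamp loader RFC1 (−0.88 and −1.22). Of 16 genes of telomeres and silencing 1 fell (6.25%), TBF1, a telomere-binding factor (−0.77 and −1.09). Of 13 genes of histones and their chaperones limma called none (1 above and 0 below 0 at an unadjusted p under 0.05, 3 and 0 with the replicate block), and 8 lay above 0 on both arrays. The shares over all IDs at these 2 settings were larger, and 1437 of 4272 IDs lay above 0 on both arrays.

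By chromosome, the median response lay between −0.11 (chromosome I) and 0.10 (chromosome X), and between 9.17% (XIII) and 16.7% (XV) of the IDs were called. A few IDs differed strongly between the arrays. SHG1, of the histone methyltransferase complex Set1, had −0.99 and 3.93, INA22, of ATP synthase assembly, had −0.15 and 2.92, and FBP26, which breaks down the glycolytic regulator fructose bisphosphate, had −0.24 and 2.23. RTS2 had 1.39 and −4.19, BLI1 had −1.91 and 0.97, and YGL041C had −0.38 and −4.02. SHG1, INA22, FBP26 and RTS2, with NOP53 of large-subunit assembly (−1.87 and 0.05), were called with opposite signs on the arrays. A call of any of these 5 rests on 1 array.

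The wild-type arrays were then set beside those of pif1 to ask where the strains differ. Over a run of 75 neighbouring IDs, YMR176W to YMR250W, the values of the wild-type zinc arrays and those of pif1 are out of step by 1 ID. In it the strains correlated at −0.0780 as deposited (40 IDs) and at 0.914 when each pif1 value was set against the wild-type value of the previous ID (51 IDs), against 0.824 elsewhere. The pattern of missing values bears on which pair is displaced. In the run, the number of pif1 zinc arrays with a value correlated at 0.758 with the number among the arrays of pif1 against wild type, and that of the wild-type zinc arrays at 0.0117, or at 0.816 when taken from the previous ID (75 IDs). Outside the run these correlations were 0.722 and 0.794. The wild-type values of the run are therefore the ones treated as misplaced, and the pif1 values in it, such as those of GUA1, were kept. The run was left out of the difference, which was tested on 4046 IDs with a value on all 4 zinc arrays. Fitted alone in the same way, the wild-type arrays called 20.2% of their IDs higher and 21.7% lower. Of the IDs that rose in pif1, 215 of 222 (96.8%) rose in the wild type, and these are 26.1% of the 825 that rose there. Of those that fell in pif1, 240 of 280 (85.7%) fell in the wild type, which is 27.3% of the 880 that fell there. The pif1 threshold was the wider one, because its arrays differed more. The slope of pif1 on wild-type values was 0.776 over all IDs, 0.665 over the 825 that rose in the wild type and 0.861 over the 880 that fell there. The last pair of groups was chosen by the wild-type values, so these slopes are descriptions of these arrays.

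The difference passed for 7 of the 4046 IDs (0.173%), 1 higher and 6 lower in pif1. GPX2 (YBR244W, chromosome II) had 2.32 and 2.89 in pif1, against −0.15 and −0.13 in the wild type, a difference of 2.74 ± 0.30 SE (limma adjusted p = 0.000157). HSP26 had 3.28 and 3.35 in pif1, against 6.90 and 6.37 in the wild type, a difference of −3.32 ± 0.32 SE (adjusted p = 6.4e-05). No array of one strain overlapped those of the other for either gene. On the zinc arrays HSP26 thus rose in both strains, by less on those labelled pif1.

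Of the other 5 genes, 3 encode parts of siderophore iron uptake. FIT1 was at 0.44 and 0.15 in pif1, against 2.38 and 2.25 in the wild type (difference −2.02 ± 0.29 SE, adjusted p = 0.00446). FIT3 had 1.59 and 0.54 in pif1, against 3.45 and 2.86 in the wild type (−2.09 ± 0.36 SE, adjusted p = 0.0158). ARN2, a siderophore transporter, was at 0.02 and 0.11 in pif1, against 1.90 and 2.04 in the wild type (−1.91 ± 0.29 SE, adjusted p = 0.00506). All 3 lay lower on both pif1 arrays than on either wild-type array. AAD6, a putative aryl-alcohol dehydrogenase with several near-identical relatives, was at −0.30 and −0.32 in pif1, against 1.54 and 1.70 in the wild type (−1.93 ± 0.29 SE, adjusted p = 0.00506). NQM1, a relative of transaldolase, had 1.33 and 2.10 in pif1, against 4.24 and 3.62 in the wild type (−2.22 ± 0.35 SE, adjusted p = 0.00681).

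Next below the threshold stood 8 genes with an adjusted p under 0.12. STR3, of cysteine and methionine synthesis, was at 1.40 in pif1 and 3.40 in the wild type (adjusted p = 0.0584), and GLT1 was at −1.90 in pif1 and −3.64 in the wild type (adjusted p = 0.0584). HSP12 was at 2.44 in pif1 and 4.06 in the wild type (adjusted p = 0.0721). LEU1 (−2.34 in pif1 and −3.71 in the wild type, adjusted p = 0.109) and CCP1 (0.00 in pif1 and −1.32 in the wild type, adjusted p = 0.119) lay higher in pif1. PRB1 (0.13 in pif1 and 1.52 in the wild type, adjusted p = 0.114), ARE1 (−1.54 in pif1 and 0.03 in the wild type, adjusted p = 0.114) and YIL108W (−0.44 in pif1 and 0.86 in the wild type, adjusted p = 0.116) lay lower. Among the antioxidant enzymes, TSA1 and SOD1 stood farther from the threshold, TSA1 at 1.47 in pif1 and 0.17 in the wild type (difference 1.31 ± 0.38 SE, adjusted p = 0.29), and SOD1 at 1.98 in pif1 and 0.88 in the wild type (1.10 ± 0.33 SE, adjusted p = 0.315). By their labels, the arrays of pif1 against wild type gave LEU1 the opposite direction (−0.232 and −0.263 with zinc, 1.535 and 1.641 without). They did so also for CCP1, PRB1, TSA1 and SOD1, and for HSP12 on 1 array labelled with zinc. ARE1 and YIL108W differed little there, and STR3 and GLT1 had no value labelled with zinc. With the replicate number as a block, 17 IDs were higher and 85 lower in pif1, the 7 among them, and STR3 (adjusted p = 5.6e-11), GLT1 (3.89e-08), HSP12 (6.48e-07), ARE1 (1.78e-06), PRB1 (5.06e-05), LEU1 (6.25e-05), CCP1 (0.000167), YIL108W (0.000226), TSA1 (0.000199) and SOD1 (0.00351) passed. In the block fit the adjusted p followed the size of the difference and not the spread between the arrays of a gene. RTS2, at 1.39 and −4.19 in pif1, passed it too (3.48e-06). These p-values are therefore no measure of how well the replicates of a gene match. Without wild-type replicate 1, 0 passed by limma (315 at an unadjusted p under 0.05).

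**Figure D4:**
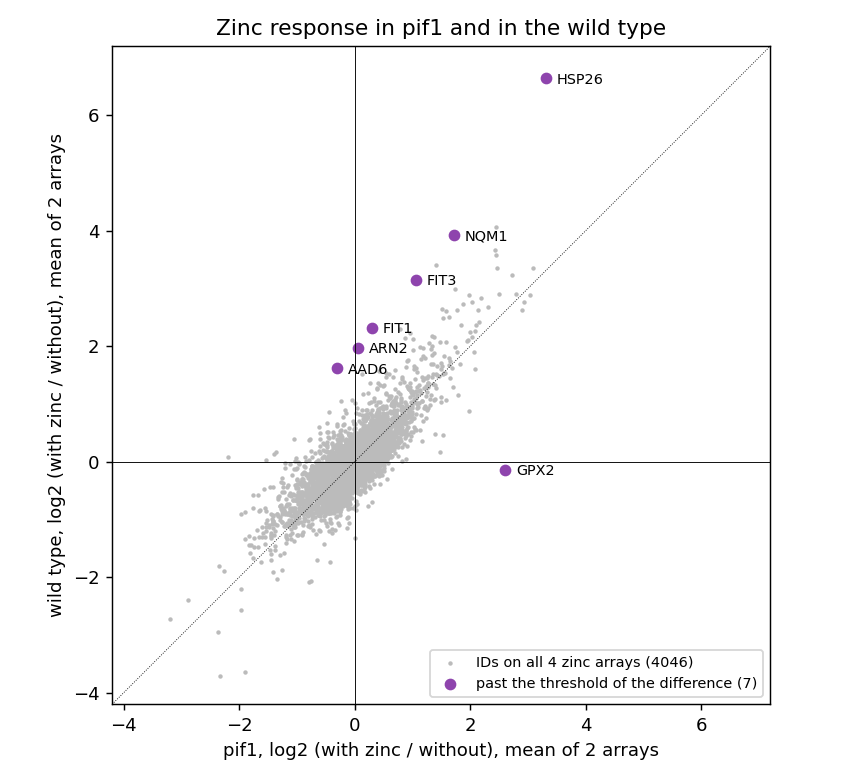
Mean log2 ratio, with zinc over without, in pif1 (x axis) and in the wild type (y axis) for 4046 IDs measured on all 4 zinc arrays outside the run of misplaced values. Purple points are the 7 IDs past the threshold of the difference, and the dotted line marks equal responses. GPX2 lies to the right of the line, and HSP26, NQM1, FIT3, FIT1, ARN2 and AAD6 lie above it.

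The same difference can be read from the arrays of pif1 against wild type, as the value labelled with zinc minus that labelled without. These arrays hold the same 4 kinds of RNA as the zinc arrays, so the estimates share RNA kinds and are given side by side, by their labels. For GPX2 the arrays labelled with zinc gave −2.57 and −2.56 and those labelled without gave −0.12 and 0.22, a difference of −2.61 where the zinc arrays gave 2.74. For HSP26 they gave 2.67 and 1.48 with zinc and −0.62 and −0.95 without, a difference of 2.86 where the zinc arrays gave −3.32. The estimates are close in size and opposite in sign for both genes.

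The iron genes read likewise. FIT1 gave a difference of 1.78 on the arrays of pif1 against wild type and −2.02 on the zinc arrays, FIT3 gave 2.03 and −2.09, and ARN2 gave 1.59 and −1.91. AAD6, measured on replicate 2 alone of each, gave 2.43 and −1.93. NQM1 had no value on the arrays labelled with zinc. The direction of these differences by strain therefore depends on which arrays are read. The zinc response of pif1 was read from the zinc arrays labelled pif1. PIF1 had no value on them or on the wild-type zinc arrays, so the strain labels of the zinc arrays were not checked.

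**Figure D5:**
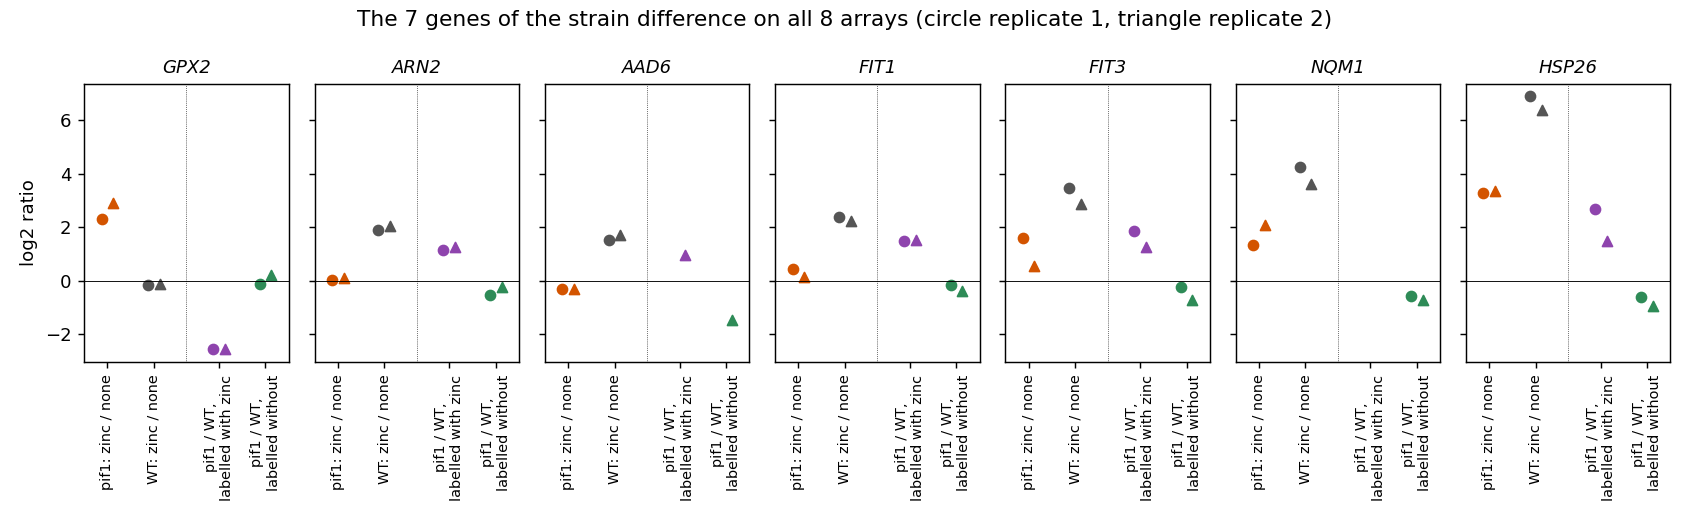
Log2 ratios of the 7 genes on all 8 arrays, with circles for replicate 1 and triangles for replicate 2. Left of each dotted line are the responses to zinc of pif1 and of the wild type, and right of it the ratio of pif1 over wild type on arrays labelled with zinc and without zinc. GPX2 is higher in pif1 than in the wild type on the left and lowest on the arrays labelled with zinc on the right, and HSP26 shows the reverse.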

How the data were processed

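The log2 ratios of all arrays were deposited by the authors as 1 table. Per the labels' protocols, cDNA was made from total RNA with an oligo(dT) primer, labelled indirectly, and small spots (under 120 um) or dim ones (under 100 units in both dyes) were dropped. Scanner, background correction, normalization and log base are not given in the sources used here. Entries larger than 16 in size (2 of PIF1) were treated as missing, and each array was centred on its median. Symbols came from NCBI's R64 gene table (5662 IDs matched, 550 keep their ID).

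IDs with a value on both pif1 zinc arrays were fitted with limma 3.58.1 (R 4.3.3, lmFit and eBayes) on those 2 arrays, with Benjamini-Hochberg adjustment over all 4272. The strain difference was fitted on the 4 zinc arrays with 1 weight per pair (0.496 for pif1, 2.02 for the wild type). The number of arrays limits the precision. Replicate numbers deviated together in every pair of comparisons, so they were also fitted as a block. The script was tested on simulated data. The members and 73 gene lists were chosen with earlier results of these data known, and lists are described by counts and medians, with no test. Named genes were the 15 highest and 15 lowest with 1 sign on both arrays, up to 4 members per list by size, all listed transcription factors, the genes of the strain difference and the 6 IDs whose arrays differ most. Other genes named were chosen after their values were seen. A few genes that the rule selects are not reported here.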

Additional observations from a re-analysis of the deposited data

Results flagged for a closer look

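The response to zinc differed between pif1 and the wild type, by the test of the difference on the 4 zinc arrays, for 7 genes. The difference, pif1 minus wild type, was 2.74 for GPX2, −1.91 for ARN2, −1.93 for AAD6, −2.02 for FIT1, −2.09 for FIT3, −2.22 for NQM1 and −3.32 for HSP26. The arrays of pif1 against wild type, read by their labels, gave the opposite sign for 6 of these genes and no value for NQM1. Which set of arrays goes with its labels was not tested.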

How the results depend on the processing

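The 235 IDs higher and 291 lower in pif1 became 675 and 686 with a spread pooled over all 8 arrays, 586 and 611 with a dye term, 968 and 931 with the replicate block, and 104 and 99 where 2-fold on both arrays was asked for. Leaving out 1 pif1 array, where the array left was assumed to vary like those of the other comparisons, gave 795 to 834 higher and 802 to 872 lower. Without centring there were 235 and 262, and with quantile normalisation 264 and 222. Of the 526 calls, 457 were made again after quantile normalisation, 495 without replicate 2 and 479 without replicate 1, all in the same direction. Among the genes picked by the naming rule, quantile normalisation ended 14 calls, no centring 9, the pooled spread 5, robust eBayes 4 and the dye term 3. The response turned for the 5 called genes of opposite sign when 1 array was left out, with ranges of −0.15 to 2.92 for INA22, −0.24 to 2.23 for FBP26, −4.19 to 1.39 for RTS2, −0.99 to 3.93 for SHG1 (not refitted, since it has 1 value on the other 6 arrays) and −1.87 to 0.05 for NOP53. The strain difference (1 higher, 6 lower) became 2 higher with the pooled spread, 2 without centring, 7 higher and 17 lower with arrays scaled to 1 spread, 2 and 3 after quantile normalisation, and 17 and 85 with the replicate block. Leaving out 1 zinc array gave 0 to 70 higher and 0 to 163 lower, the 0 without wild-type replicate 1. The arrays of pif1 against wild type alone gave 11 higher and 8 lower, with 5 of the 7 turned: HSP26 2.86, GPX2 −2.61, FIT1 1.78, ARN2 1.59 and FIT3 2.03. The mean of both estimates gave 0 and 0 by limma (227 at an unadjusted p under 0.05), since it averages values of opposite sign. The cause of the other changes was not tested. The planned search for promoter motifs was not run, because no promoter sequence was used here.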

Other observations

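Actin genes, grouped after their values were seen, lay above 0 in pif1 with zinc. Of 26 measured genes of actin patches and filaments, 7 rose and 0 fell (26.9%, against 12.3% over all IDs). Their median was 0.59, and 19 lay above 0 on both arrays. YSC84, a patch protein, had 1.50 and 1.33, cofilin (COF1) had 1.51 and 0.52, ARC18 of the Arp2/3 complex had 1.54 and 0.45, and profilin (PFY1) had 1.41 and 0.50. CAP1, SCP1 and ARC19 also rose, and actin itself (ACT1) was at 0.65 and −0.22. In the wild type the median was 0.44.

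The 3 enzymes of the GABA shunt, which turns glutamate into succinate, rose: GAD1 (2.00 and 1.93), UGA1 (1.74 and 1.26) and UGA2 (1.28 and 1.53). GAD1 lies in the run of IDs whose wild-type values were left out, and its rise rests on the pif1 arrays. Both enzymes that repair damaged NADH rose, NNR1 (2.12 and 1.20) and NNR2 (1.96 and 1.92), as did the butanediol dehydrogenases BDH1 (1.31 and 0.87) and BDH2 (1.89 and 1.57). These genes were chosen after their values were seen.

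Replicate 1 of pif1 gave a value for 71 IDs that had none on the other 7 arrays, and 30 of these lie on chromosome II and 30 on chromosome XII. No other chromosome held more than 2. Those on chromosome II had a median of −1.84, from −5.21 to 0.01, and those on chromosome XII a median of −0.95, from −2.79 to 1.62. On chromosome II, 89.2% of 415 IDs had a value on replicate 1 and 74.2% on replicate 2. MET17, deleted in BY4741, was among these IDs, at −2.79. None of them enters the counts above, which need a value on both arrays.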
